A study of Saccharomyces cerevisiae with 3 samples.

Results

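The promoters described here are those of 398 yeast genes whose −1 nucleosome is listed as stable and whose core promoter has no canonical TATA element. A gene was taken if it stood in the list of stable −1 nucleosomes of the study and had exactly 1 row in its table of transcription sites. Genes were left out if they were in the lists of fragile −1 nucleosomes, TATA genes, genes bound by Abf1, Rap1 or Reb1, ribosomal protein genes, asymmetric −1 nucleosomes or highly transcribed genes. These 398 promoters were chosen from 1971 genes with 1 row, and the stable and fragile lists are a published classification made on other data. The table of sites and the stable list were used in part, so all 398 lie on chromosomes 7 to 16, with 30 to 56 on each, and their TSSs lie between coordinates 5765 and 304157, in the first 305 kb of each chromosome. The build of the table of sites is not given in the sources used here, and its TSS coordinates were used as they stand with reads aligned to sacCer2. On chromosomes 8 to 11, where the list of TATA-like genes could be compared, 134 of 139 (96.4%) were in it. The Watson strand carried 189 of the genes and the Crick strand 209.

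Chromatin of *Saccharomyces cerevisiae* was digested with micrococcal nuclease (MNase), an enzyme that cuts the linker DNA between nucleosomes, and fragments of mononucleosomal size were sequenced. There were 2 replicates of chromatin from *dst1∆* cells, which lack the transcription elongation factor TFIIS, and 1 library of naked DNA, purified from wild-type BY4741 cells before it was digested. Both strains were grown exponentially in YPD and fixed with formaldehyde, and both carry the *his3Δ1*, *leu2Δ0*, *met15Δ0* and *ura3Δ0* alleles of BY4741, of which *dst1∆* is a derivative. Wild-type chromatin was not analysed here, so an effect of *dst1∆* was not measured, and strain and presence of histones cannot be told apart in any comparison with naked DNA.

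In a typical yeast promoter, a nucleosome-depleted region (NDR) upstream of the transcription start site (TSS) lies between nucleosome −1 and nucleosome +1, and an array of regularly spaced nucleosomes follows over the gene. Remodelers such as RSC and DNA-binding proteins such as Reb1, Abf1 and Rap1 keep the NDR open. Nucleosomes called fragile are easily lost when chromatin is digested extensively, whereas stable ones are recovered. MNase cuts some sequences more readily than others, and DNA that it cuts slowly can give fragments of nucleosomal size without any histone. Subtracting the signal of naked DNA from that of chromatin is meant to remove this part of the signal.

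The libraries held 9049024 to 16618987 reads, a 32.2-fold to 49.7-fold coverage of the nuclear genome. At most 11 reads per strand position were counted for naked DNA and 9 for each *dst1∆* replicate, which kept 65.2% to 72.5% of the reads. All signals below are fragment centres, scaled to a genome mean of 100 in each library. After subtraction and setting negative values to 0, the genome mean was 34.8 in *dst1∆* replicate 1 and 50.4 in replicate 2, so corrected values of the 2 replicates are on different scales, and contrasts within a replicate are the safer ones. The naked DNA and replicate 1 were read as 36-nt reads in the same sequencing run and replicate 2 as 50-nt reads on another instrument, and the run and the replicate cannot be told apart. The longest stretch in which neither *dst1∆* replicate had a read covered 531 bp of chromosome 7, from 417880 to 418410, where the naked DNA had 631 reads. *DST1* lies on chromosome 7, but its position in sacCer2 was not used here.

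In *dst1∆* chromatin these promoters showed a clear −1 nucleosome, a deep NDR and a regular array downstream, in both replicates. The uncorrected mean profile had its −1 peak at position −210 from the TSS in replicate 1 and −207 in replicate 2, its lowest point at −59 and −67, and its +1 peak at 55 and 51. The level at the −1 peak was 136 in replicate 1 and 172 in replicate 2, against 12.6 and 11.2 at the lowest point. After correction the −1 peak stood at −207 and −199, with a level of 70.3 in replicate 1 and 120 in replicate 2 (95.1 ± 35.2, mean ± SD, n = 2). The corrected +1 peak was higher in each replicate, with 110 and 154 (132 ± 31.0, n = 2). The averaged signal thus had a −1 peak in both replicates, but such a peak is not particular to stable promoters. Before correction it was 131 and 164 at the 166 fragile promoters described below, and 131 and 139 at all 1283 genes of these chromosomes. After correction it was 59.1 and 106 at the fragile promoters and 55.2 and 88.9 at all these genes.

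**Figure D1:**
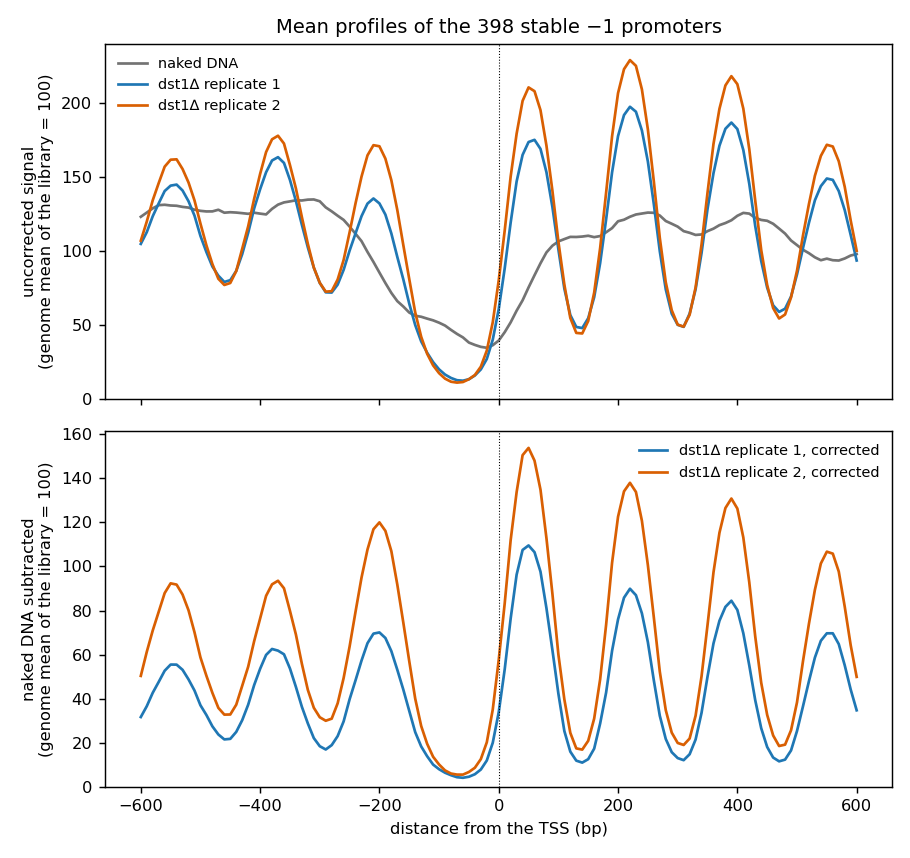
Mean signal of the 398 stable −1 promoters from 600 bp upstream to 600 bp downstream of the TSS, in the naked DNA and in the 2 *dst1∆* replicates before correction (top) and in the replicates after subtraction of naked DNA (bottom). The dotted line is the TSS; the −1 peak lies near −207, the lowest point near −59 to −67 and the +1 peak near 51 to 55, while the naked DNA falls to 34.7 at −21.

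The nucleosomes downstream were spaced regularly. In the corrected profile, nucleosomes +1 and +2 were 172 bp apart in replicate 1 and 167 bp in replicate 2, and nucleosomes +2 and +3 were 169 bp and 168 bp apart. Upstream, nucleosomes −2 and −1 were 174 bp and 172 bp apart. The step over the NDR from −1 to +1 was 254 bp and 250 bp (252 bp on average), longer than each of the spacings on either side of it in both replicates.

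The naked DNA of these promoters gave few fragments just upstream of the TSS. Between 250 and 50 bp upstream the mean naked DNA signal was 68.4 (67.8 to 69.0, 95% Poisson interval over 49133 fragment centres), below the genome mean of 100. This interval covers counting error only, since the naked DNA was a single library and reads carried no molecular identifiers. The spread between promoters was wide, with a lowest value of 0.744, a median of 27.4 and a highest of 563, and 76 of the 398 (19.1%) were above the genome mean. Most promoters thus lay well below the mean, which a minority of MNase-resistant promoters raised. Closer to the TSS, between 120 and 20 bp upstream, the mean was 44.3 and the median 21.1.

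Over the −1 nucleosome itself, between 300 and 130 bp upstream, the averages of chromatin and of naked DNA were close together. The mean uncorrected signal there was 96.0 in *dst1∆* replicate 1 and 115 in replicate 2, against 94.4 in naked DNA. The log2 ratio of the means (with 10 added to each) came to 0.02 and 0.26 in the replicates (0.14 ± 0.17, SD, n = 2), which does not exceed the spread between the replicates. The medians over promoters differed more, with 70.04 and 93.6 in the replicates and 39.1 in naked DNA. In 241 of the 398 promoters (60.6%) both replicates were above naked DNA in this window, against 49.5% of all 1971 genes. In 91 (22.9%) both were below it, against 33.9% of all genes. These counts hold for libraries scaled to their genome mean. With scaling to the genome median the log2 ratio of the means over the −1 window was −0.82 in replicate 1 and −0.53 in replicate 2, so whether chromatin lies above or below naked DNA depends on the scaling, here and in the other counts above and below naked DNA, which were not computed under median scaling.

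A difference of at least 2-fold (log2 ratio with 10 added) in both replicates was found at 122 promoters above naked DNA (30.7%), where 22.1% of all genes passed. Below naked DNA it was found at 21 promoters (5.28%), where 10.5% of all genes passed. No p-value goes with these counts, because 1 naked DNA library allows no test.

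**Figure D2:**
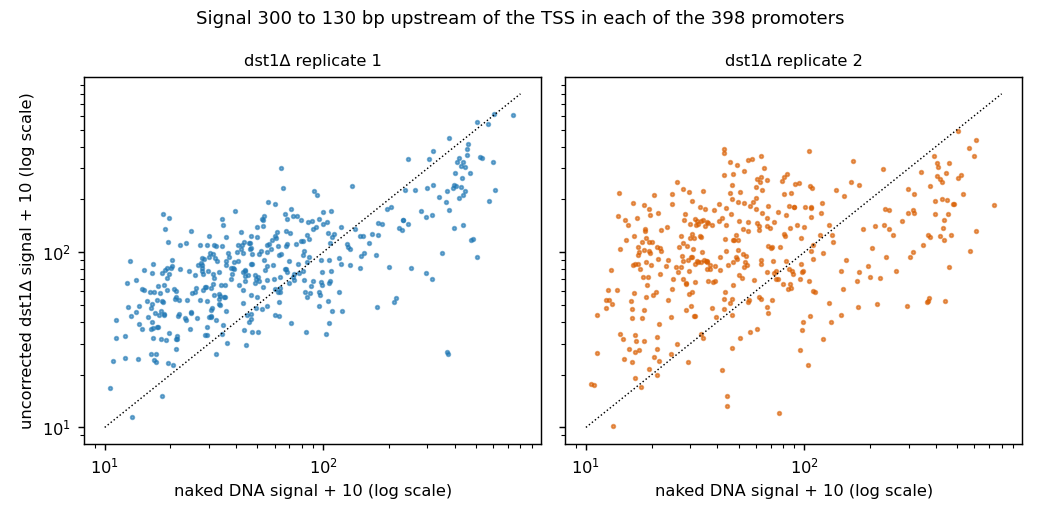
Uncorrected signal of each of the 398 promoters between 300 and 130 bp upstream of the TSS, naked DNA on the x axis and *dst1∆* replicate 1 (left) or 2 (right) on the y axis, with 10 added and both axes on a log scale; 1 point is 1 promoter and the dotted line marks equal values. Both replicates lie above the line at 241 promoters, and the points follow naked DNA more closely in replicate 1 (Spearman's rho 0.63) than in replicate 2 (0.36).

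The promoters with the most naked DNA signal had the least corrected signal at −1. In the 100 promoters with the least naked DNA signal in this window (median 8.59), the median uncorrected signal was 41.4 and 68.1 in the replicates. In the 100 with the most (median 248), it was 136 and 131, below the naked DNA. The median corrected signal was 33.3 and 55.5 in the former and 21.6 and 17.9 in the latter. Subtraction lowers a corrected value where the naked DNA is high, so this order is partly built into the measure. A −1 nucleosome was called in both replicates at 94 of the 100 with the least naked DNA, at 96 of 99 and 94 of 99 in the middle of the range, and at 77 of the 100 with the most.

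The NDR was deeper in chromatin than in naked DNA. Between 120 and 20 bp upstream the mean uncorrected signal was 18.1 in replicate 1 and 17.4 in replicate 2, against 44.3 in naked DNA, a log2 ratio of −0.97 ± 0.03 (SD, n = 2). Both replicates were below naked DNA at 259 of the 398 promoters (65.1%), close to the 67.1% of all genes. A fall of at least 2-fold in both was found at 118 (29.6%), a smaller share than the 37.3% of all genes. Relative to the +1 window, the first 120 bp downstream of the TSS, the uncorrected depth of the NDR was −2.98 ± 0.20 on the log2 scale (SD, n = 2).

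Nucleosome +1 stood out from naked DNA more than nucleosome −1 did. Its mean uncorrected signal was 129 in replicate 1 and 152 in replicate 2, against 80.7 in naked DNA. With scaling to the genome mean the log2 ratio was 0.73 ± 0.15 (SD, n = 2), beyond what separated the replicates. Its sign may depend on the scaling. The ratio over the −1 window was −0.67 with median scaling, which was not computed for the +1 window. Both replicates were above naked DNA at 312 promoters (78.4%), where the share of all genes was 73.2%. The rise was at least 2-fold in both at 205 (51.5%), where the share was 45.8%.

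Individual nucleosomes were called as peaks of the corrected and smoothed signal, of height 20 or more. Nucleosome −1, the called peak nearest to the TSS from 400 to 100 bp upstream, was found at 383 promoters in replicate 1 and 371 in replicate 2, and at 361 (90.7%) in both, against 79.5% of all 1971 genes. Nucleosome +1, the highest peak from 50 bp upstream to 150 bp downstream, was found at 382 and 352, and at 346 (86.9%) in both, against 84.4% of all genes. Only 5 promoters lacked a −1 call in both replicates, *BMT5*, *DIP5*, *HMG1*, *HXT8* and *KAR9*, which were named after this was seen. The missing calls went with naked DNA signal, which is partly built in, since peaks were called after naked DNA was subtracted. Without correction, −1 was called in both replicates at 393 of the 398. The shares called also compare sets with unlike naked DNA. Its mean over the −1 window was 94.4 at the 398 promoters and 118 at all 1283 genes of the same chromosomes. In replicate 1 the median naked DNA signal over the −1 window was 286 at the 15 promoters without a −1 call and 37.0 at the 383 with one, and in replicate 2 it was 93.4 at the 27 without and 37.1 at the 371 with one.

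The called nucleosome −1 varied more in position than the called nucleosome +1 did. Its median was −202 in replicate 1 and −203 in replicate 2, and from the 10th to the 90th percentile it ran from −286 to −155 and from −292 to −160. Nucleosome +1 had its median at 49 in both replicates and ran from 23 to 81 and from 17 to 81 between the same percentiles. The search window of −1 was the wider one, which favours this order. It also held the −2 peak of the mean corrected profile, at −381 and −371. At all genes of these chromosomes, −1 ran from −339 to −156 and from −340 to −160 between these percentiles. There +1 ran from 15 to 89 and from 7 to 90. Where both nucleosomes were called, the median distance between them was 254 bp (370 promoters) and 257 bp (330 promoters), 255.5 ± 2.12 bp (SD, n = 2). The distance was above 200 and up to 300 bp at 303 of 370 promoters (81.9%) in replicate 1 and at 271 of 330 (82.1%) in replicate 2, and above 300 bp at 44 (11.9%) and 43 (13.0%). At all genes of these chromosomes with both calls, the shares were 67.1% and 67.8% in the first range. Above 300 bp they were 25.9% and 26.1%.

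Nucleosome −1 was more often the lower than the higher of the pair. It was higher than +1 at 38.6% of 370 promoters in replicate 1 and at 44.5% of 330 in replicate 2, and the median height was 82.4 and 134 for −1 and 110 and 163 for +1. The calling rule favours this order, since +1 was the highest peak in its window and −1 the nearest to the TSS. The shares were 41.5% and 47.3% at all genes of these chromosomes with both calls. At the fragile promoters described below they were 44.8% and 46.3%. The fuzziness of −1, the SD of position within 100 bp of the peak, was nearly that of +1. The mean difference was 0.67 bp and 0.25 bp in the replicates (0.46 ± 0.30 bp, SD, n = 2), beside a mean fuzziness of 26.5 and 26.0 bp for −1. With a full nucleosomal width counted around each centre in place of 81 bp, the difference turned to −1.13 bp, so no order of fuzziness was read from it. At close divergent pairs, described below, −1 of one gene was +1 of the other, so their differences cancel within the pair. This was so for 111 gene sides in replicate 1 and 100 in replicate 2. At the 253 promoters with an unshared window, the fuzziness difference was 1.11 and 0.66 bp.

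The replicates placed the called nucleosomes alike but ranked the promoters differently. Of the 361 promoters with a −1 call in both, the positions were within 10 bp at 237 (65.7%) and within 20 bp at 303 (83.9%). For nucleosome +1 the positions were within 10 bp at 253 of 346 (73.1%) and within 20 bp at 323 (93.4%). At all genes of these chromosomes called in both, the shares for −1 were close to these, with 66.7% and 83.1%. For +1 they were 70.3% and 89.1%. Across the 398 promoters, Spearman's rho of the uncorrected signal over the −1 window was 0.48 between the replicates, 0.63 between naked DNA and replicate 1 and 0.36 between naked DNA and replicate 2. Over the +1 window the values were 0.40, 0.62 and 0.33, and over the NDR they were 0.72, 0.33 and 0.10. These coefficients describe 398 promoters of 3 libraries, which share the genome sequence, and, for naked DNA and replicate 1, a sequencing run and read length, and whether the run played a part was not tested. Levels of a single promoter at −1 and +1 thus depended on the replicate, whereas positions and the uncorrected signal in the NDR did so less. That signal came from a median of 4.5 fragment centres per promoter in replicate 1 and 2 in replicate 2.

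Fragile −1 promoters were chosen by the same rule from the list of fragile nucleosomes, on the same 10 chromosomes, and there were 166 of them. The stable promoters differed from them mainly in where the called nucleosome −1 lay. In its own corrected profiles the study had already reported a wider NDR at fragile than at control genes. Before correction it saw the fragile particle of that whole gene set only as a shoulder on the TSS side of the first upstream nucleosome. The called −1 of the fragile promoters may thus not be the listed fragile nucleosome, which was not tested. The median position of −1 was −202 and −203 in the stable promoters and −256 and −252 in the fragile ones, while +1 was at 49 and 49 against 48 and 47. The median distance between the nucleosomes was 254 and 257 bp against 300 and 295 bp. The difference exceeded the replicate spread in either group, and the stable promoters had the shorter median distance on 10 of 10 chromosomes in both replicates. The distance was above 300 bp at 11.9% and 13.0% of the stable promoters and at 49.0% and 44.8% of the fragile ones. These shares may include promoters where −2 was called as −1, since the search for −1 reached −400. This was not tested. At 21 fragile promoters with a divergent TSS 251 to 400 bp upstream, the median called −1 was at −346.5 and −348. Their corrected signal over the −1 window was 6.61 and 11.3. All 1283 genes of these chromosomes had median distances of 268 and 270 bp, between both groups.

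**Figure D3:**
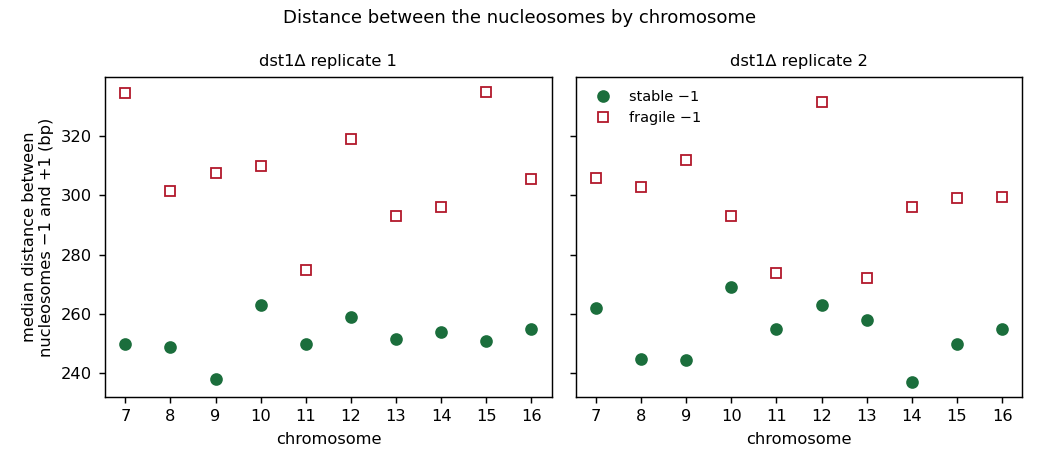
Median distance in bp between called nucleosomes −1 and +1 on each of the 10 chromosomes, for stable −1 (filled circles) and fragile −1 promoters (open squares), in *dst1∆* replicate 1 (left) and 2 (right); the y axis does not start at 0. The stable medians run from 238 to 263 bp and from 237 to 269 bp, and the fragile ones from 275 to 335 bp and from 272 to 331.5 bp, with no overlap.

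Once called, nucleosome −1 was no higher in the stable than in the fragile promoters, where it may not be the listed fragile nucleosome. The median corrected height was 82.4 and 134 in the stable promoters and 88.9 and 154 in the fragile ones. The median fuzziness was 25.9 and 25.9 bp against 26.5 and 25.6 bp. It was called in both replicates at 361 of 398 stable promoters (90.7%) and at 139 of 166 fragile ones (83.7%). Nucleosome +1 did not separate the groups beyond the replicates either, with a log2 ratio of its corrected window of 0.14 in replicate 1 and −0.14 in replicate 2.

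In the fixed window from 300 to 130 bp upstream, the mean corrected signal was 43.6 and 73.1 in the stable promoters and 33.4 and 60.7 in the fragile ones, a log2 ratio of 0.33 ± 0.08 (SD, n = 2). Nearer the TSS, from 250 to 50 bp upstream, it was 34.4 and 56.7 against 17.6 and 34.3, a log2 ratio of 0.85 ± 0.17. Since the peak of the fragile promoters lies farther upstream, a fixed window measures position as well as height. The stable promoters were higher on 8 and 7 of the 10 chromosomes in the first window, and on 9 and 8 in the second.

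In naked DNA the order was the opposite. Between 250 and 50 bp upstream, the signal was 68.4 in the stable and 85.5 in the fragile promoters, a log2 ratio of −0.32 (−0.34 to −0.30, counting error only), with the stable promoters lower on 7 of 10 chromosomes. The size of this ratio depended on the processing and was −0.10 without a cap on repeated reads, −0.20 with 1 read per strand position, −0.19 at promoters with no listed site within 500 bp upstream and −0.51 at those with an unshared window. The difference was largest in the NDR, with 44.3 against 77.9 (log2 ratio −0.81), and lower on 9 of 10. Over the −1 window the naked DNA signals were 94.4 and 93.0 (log2 ratio 0.02). Uncorrected chromatin between 250 and 50 bp upstream was 69.8 and 84.9 in the stable promoters and 45.5 and 53.5 in the fragile ones. Both replicates were above naked DNA there at 245 stable promoters (61.6%) and at 63 fragile ones (38.0%), where the share of all genes was 43.2%.

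**Figure D4:**
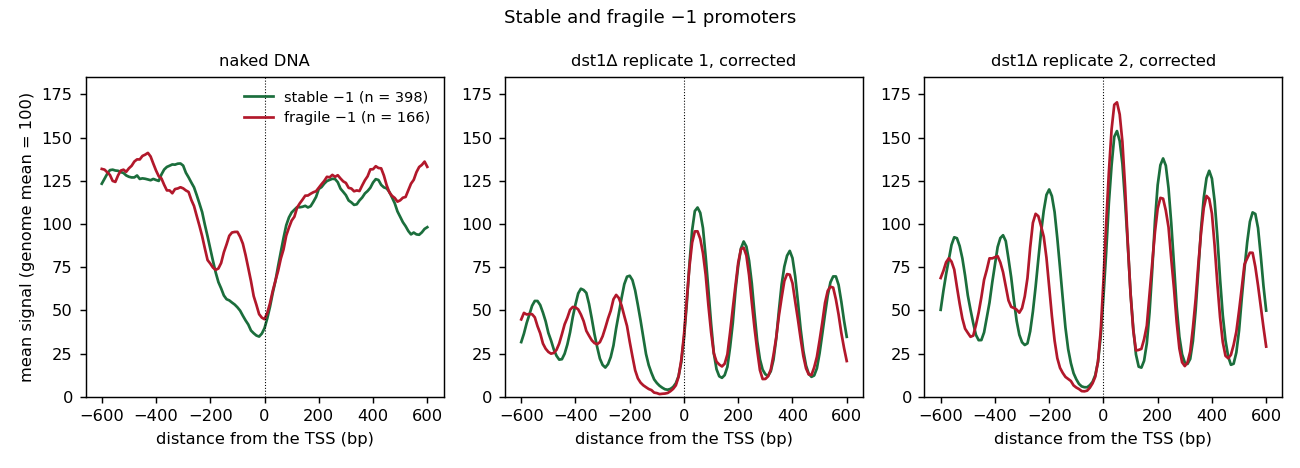
Mean profiles of 398 stable −1 promoters (green) and 166 fragile −1 promoters (red) in naked DNA and in the corrected *dst1∆* replicates, against distance from the TSS in bp. The stable −1 peak lies at −207 and −199 and the fragile one at −249 and −253, whereas both +1 peaks lie at 47 to 51; in naked DNA the fragile promoters hold more signal between 120 and 20 bp upstream (77.9 against 44.3).

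Stable −1 promoters with a TATA element, 67 on the same chromosomes, had a shallower NDR. Uncorrected signal between 120 and 20 bp upstream was 18.1 and 17.4 in the promoters without TATA and 43.1 and 46.6 in those with it, a log2 ratio of −1.34 ± 0.12 (SD, n = 2). Naked DNA in the same window differed in the same direction, with 44.3 against 74.7 (log2 ratio −0.75). Corrected signal there was 6.88 and 9.57 against 17.4 and 28.8. The distance between −1 and +1 was similar, with medians of 254 and 257 bp against 258 and 262.5 bp.

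The nearest listed site upstream was the TSS of a divergent gene at 195 of the 398 promoters and the polyadenylation site (pAS) of a tandem gene at 187. At 15 the nearest neighbour reached over the TSS and 1 had no listed neighbour. The divergent promoters had the higher nucleosome −1 in replicate 1, with a median height of 111 against 66.3, whereas in replicate 2 the values were 145 and 122. The corrected mean over the −1 window was 52.0 and 77.7 in divergent and 35.3 and 68.5 in tandem promoters, and naked DNA there was 107 and 74.1. The median distance between −1 and +1 was 252.5 ± 3.54 bp in divergent and 259.5 ± 0.71 bp in tandem promoters (SD, n = 2).

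At divergent promoters with a short shared region, nucleosome −1 of one gene was nucleosome +1 of the other. There were 67 pairs in which both genes were among the 398, and in 58 of them the TSSs were at most 400 bp apart. In replicate 1, both peaks were called for 112 gene sides of these 58 pairs, and in 111 the −1 peak of one gene lay within 10 bp of the +1 peak of its partner. In replicate 2 this held for 100 of 101 sides. Where the divergent TSS was up to 150 bp upstream (73 promoters), −1 lay 58 and 59.5 bp inside the neighbouring gene by the median, near the position of a +1 nucleosome, and the distance between −1 and +1 was 244 ± 2.83 bp. Where it was 151 to 250 bp upstream (69 promoters), −1 lay 37 and 40 bp inside and the distance was 261 ± 1.41 bp (SD, n = 2). The pair *OGG1* (8-oxoguanine DNA glycosylase) and *PIF1* (a DNA helicase), 132 bp apart, and the pair *RFC3* (a subunit of the clamp loader) and *MID1* (a calcium channel), 156 bp apart, are of this kind. In all, 145 of the 398 promoters share part of their window, from 600 bp upstream to 600 bp downstream, with another of the 398, in such pairs or otherwise, and these are not independent.

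The shorter distance of the stable promoters was also present among promoters with like arrangements. With a divergent TSS 151 to 250 bp upstream, the median distance was 261 ± 1.41 bp at 69 stable and 282.75 ± 9.55 bp at 21 fragile promoters. With a tandem pAS at 151 to 250 bp, it was 257 ± 2.83 bp at 68 stable and 299.75 ± 8.84 bp at 43 fragile ones (SD, n = 2). With a divergent TSS more than 400 bp away, it was 244 ± 8.49 bp at 45 stable and 300.5 ± 0.71 bp at 32 fragile ones. The mean of the replicates was shorter at the stable promoters in all 8 classes of arrangement and site distance, but some were thin. There were 6 fragile promoters with a divergent TSS within 150 bp, 8 stable ones with it at 251 to 400 bp, 10 fragile ones with a tandem pAS at 251 to 400 bp and 8 with it farther away.

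Among the 5 promoters with the highest corrected −1 nucleosome in the lower replicate were those of *SPC3*, *PBS2*, *FYV7* and *SLM1*. *SPC3* (YLR066W, Watson strand of chromosome 12, TSS at 267113), a subunit of the signal peptidase, had corrected −1 heights of 444 and 302 at positions −206 and −209. Its uncorrected signal from 300 to 130 bp upstream was 292 (261 to 326) in replicate 1 and 217 (188 to 249) in replicate 2, against 54.3 (43.0 to 67.5) in naked DNA. *PBS2* (YJL128C, Crick strand of chromosome 10, TSS at 180332), the MAP kinase kinase of the osmotic stress pathway, had 223 and 292 in the replicates and 55.3 in naked DNA. *FYV7*, which acts in ribosomal RNA processing, had 214 and 236 against 80.8, and *SLM1*, a TORC2 substrate that binds phosphoinositides, 182 and 174 against 46.2. In each of these 4 both replicates were above naked DNA with intervals that do not overlap it, and the −1 positions differed by at most 10 bp between the replicates. These promoters were chosen for a high signal after naked DNA was subtracted, so lying above it follows from the choice.

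**Figure D5:**
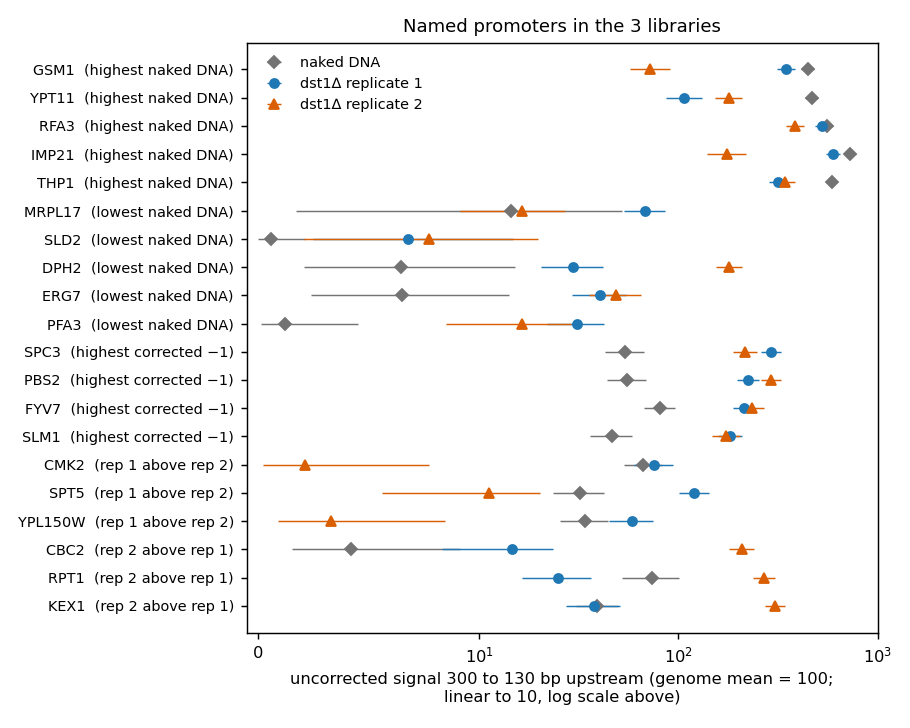
Uncorrected signal at 20 named promoters in naked DNA (diamonds), *dst1∆* replicate 1 (circles) and replicate 2 (triangles), averaged from 300 to 130 bp upstream, with 95% Poisson intervals that cover counting error only; the x axis is linear up to 10 and logarithmic above. The 4 promoters shown for a high corrected −1 peak lie above naked DNA in both replicates, those with the highest naked DNA lie below it in both, and the 6 chosen for differing between replicates do so by far more than their intervals. All these orders are favoured by how the promoters were chosen.

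MNase resistance of naked DNA between 250 and 50 bp upstream was highest at *GSM1*, *YPT11*, *RFA3*, *IMP21* and *THP1*. *GSM1* (YJL103C, Crick strand of chromosome 10, TSS at 231068), a zinc cluster protein of energy metabolism, had 563 (530 to 597) in naked DNA against 217 (194 to 243) in replicate 1 and 27.0 (15.1 to 44.5) in replicate 2. *YPT11* (YNL304W, Watson strand of chromosome 14, TSS at 60257), a Rab GTPase of mitochondrial inheritance, had 550, 148 and 182. *RFA3* (YJL173C, Crick strand of chromosome 10, TSS at 96549), the smallest subunit of replication protein A, had 550, 480 and 325. *IMP21* had 511, 437 and 34.1, and *THP1*, a component of the TREX-2 complex of mRNA export, had 446, 263 and 290. All 5 had less chromatin than naked DNA in both replicates, and *GSM1* and *IMP21* had much less in replicate 2 than in replicate 1. Choosing promoters for high naked DNA favours such an order.

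Resistance was lowest at *MRPL17*, *SLD2*, *DPH2*, *ERG7* and *PFA3*, where the naked DNA signal was 0.744 to 1.94 from 1 to 3 fragment centres. *ERG7* (YHR072W, Watson strand of chromosome 8, TSS at 239017), lanosterol synthase, had 1.85 (0.382 to 5.41) in naked DNA against 30.6 (21.8 to 41.9) and 40.5 (29.4 to 54.3) in the replicates, and its −1 peak was at −186 and −188. *DPH2*, an enzyme of diphthamide synthesis, had 22.9 and 142.8 and a −1 peak at −213 and −210. *MRPL17*, of the large mitochondrial ribosomal subunit, had 38.5 and 7.08, and *PFA3*, a palmitoyltransferase of the vacuole, had 38.4 and 14.4. All 4 had more chromatin than naked DNA in both replicates, an order that choosing the lowest naked DNA favours. At *ERG7* the intervals of the replicates overlapped, whereas *DPH2*, *MRPL17* and *PFA3* differed in level between them.

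Some listed stable promoters had almost no fragments in the −1 window. The signal from 300 to 130 bp upstream was lowest at *PRE8*, *SLD2*, *DCP1*, *KAR1* and *SWT21*. *PRE8* (YML092C, Crick strand of chromosome 13, TSS at 86813), an α subunit of the 20S proteasome, had 1.43 in replicate 1 and 0.133 in replicate 2, from 2 and 0 fragment centres, and its called −1 peaks stood at −397 and −378. *SLD2* (YKL108W, Watson strand of chromosome 11, TSS at 233994), which acts in the start of DNA replication, had 6.81 and 7.76, and *DCP1*, of the mRNA decapping enzyme, had 13.2 and 11.6. *SLD2*, *DCP1* and *SWT21*, a protein associated with the spliceosome, had called −1 peaks between −386 and −354 in both replicates. Peaks called this far upstream may be −2 nucleosomes, which the mean corrected profile had at −381 and −371. This was not tested. Naked DNA in the window was 0.578 to 9.41 at all 5, so the depth there was low in every library.

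The widest distances between called −1 and +1 that the replicates shared were 492 and 470 bp at *THI20*, an enzyme of thiamine synthesis, 463 and 447 bp at *PRE8*, and 436 and 432 bp at *MSB4*, a GTPase-activating protein of Rab GTPases. Their called −1 peaks lay between −397 and −357, where the mean corrected profile had its −2 peak (−381 and −371). They may thus be −2 nucleosomes, which was not tested. At *THI20* the naked DNA signal over the −1 window was 428, against 132 and 42.3 in the replicates. The narrowest distances were 182 and 181 bp at *CSS3* and 187 and 189 bp at *RTC6*, a mitochondrial ribosomal protein, and at *MRN1*, an RNA-binding protein. *RTC6* and *MRN1* share 1 divergent promoter with TSSs 132 bp apart on chromosome 16, so their value is 1 measurement. The position of both nucleosomes differed by at most 20 bp between the replicates at 255 promoters, from which these were chosen.

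The promoters that differed most between the replicates were chosen for that difference, so it is given as a description. *CBC2*, the small subunit of the nuclear cap-binding complex, had 14.6 in replicate 1 and 208 in replicate 2 between 300 and 130 bp upstream, with −1 called at −250 and −251. *RPT1*, an ATPase of the 19S proteasome, had 24.99 and 269, and *KEX1*, a protease that processes α-factor, had 37.8 and 306. In the other direction, *CMK2*, a calmodulin-dependent kinase, had 75.4 and 2.15, *SPT5*, a transcription elongation factor, 120 and 11.3, and *YPL150W* 58.5 and 3.30. At *CBC2*, *RPT1* and *KEX1* the position was shared within 8 bp, but at *SPT5* the −1 calls were at −223 and −387, and *CMK2* and *YPL150W* had no call in replicate 2.

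By function, 116 of the 398 genes were placed in 7 lists. Nucleosome −1 was called in both replicates at 18 of 18 genes of DNA replication and repair, 13 of 13 of the nuclear pore and pre-mRNA processing, and 21 of 22 of chromatin and transcription. It was called at 18 of 20 genes of vesicle traffic and vacuole, 8 of 9 of ribosome biogenesis, 21 of 24 of mitochondrial gene expression and respiratory assembly, and 8 of 10 of spindle and kinetochore, beside 361 of 398 overall and 79.5% of all genes. The median distance between −1 and +1 was 252.5 and 249.5 bp in the replication and repair genes, 249.5 and 254.5 bp in chromatin and transcription, and 231 and 248 bp in the mitochondrial genes, beside 254 and 257 bp in the 398. It was 252 and 253 bp in spindle and kinetochore genes, 253.5 and 289 bp in ribosome biogenesis, 262 and 265 bp in vesicle traffic and 260 and 273.5 bp in nuclear pore and pre-mRNA processing, so the lists lay on both sides of the 398. Naked DNA medians from 250 to 50 bp upstream were 15.4 to 29.1 across the 7 lists, beside 27.4.

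Within the replication and repair list, *ORC1* and *ORC3* of the origin recognition complex had −1 at −178 and −180 and at −208 and −211. *RFC4*, a clamp loader subunit, had it at −209 and −197 and *OGG1* at −183 and −183. At *ORC1* the uncorrected signal over the −1 window was 35.6 in naked DNA, 103 in replicate 1 and 316 in replicate 2, so the replicates differed in level although their positions differed by 2 bp. *RFA3* and *SLD2*, described above, were the members of this list with the most and the least naked DNA. Among chromatin and transcription genes, *MED6*, a Mediator subunit, had −1 at −169 in both replicates although its naked DNA signal there was 271 against 161 and 141 in chromatin. *RVB2*, an ATPase shared by remodeling complexes, had −1 at −205 and −194, and *RSC58*, a subunit of the RSC remodeler, at −157 and −153, with heights of 237 and 160. *INO80*, the ATPase of another remodeler, had its called −1 at −101 and −107, at the near edge of the search window, with a naked DNA signal of 600 in the −1 window. *SDS3*, of the Rpd3 histone deacetylase complex, was the 1 member of the list without a call in both replicates.

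The values of these promoters also varied between chromosomes. The mean naked DNA signal from 250 to 50 bp upstream ran from 45.5 to 111 over the 10 chromosomes. The corrected mean over the −1 window ran from 31.2 to 64.1 in replicate 1 and from 55.5 to 83.4 in replicate 2. The median distance between −1 and +1 ran from 238 to 263 bp and from 237 to 269 bp. The signals are means with a wide spread between promoters, and the distances are medians bounded by the search windows. Their ranges are therefore not comparable. Genes on the Watson and Crick strands had −1 at −205.5 and −201 in replicate 1 and at −209 and −198 in replicate 2.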

How the data were processed

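The authors aligned single-end reads to sacCer2 with GEM, allowing up to 3 mismatches and keeping reads with 1 place; which GEM version they ran is not given in the sources used here. Per the file headers and columns, the deposited lines give where every aligned read begins and ends and on which strand, with repeated reads left in, and a display score that the authors set to 1000 in every line and that was not used.

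The 5′ ends of the reads were capped per strand position at the Poisson limit (probability 1e-10). Each fragment centre was taken 73 bp downstream of the 5′ end, 81 bp around each were counted, and signals were scaled to a genome mean of 100. Corrected signal is *dst1∆* minus naked DNA, with negative values set to 0. It was smoothed with an SD of 20 bp, and peaks of height 20 or more and 100 bp or more apart were called. The steps were tested on simulated data.

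The study's table of sites (1999 rows; 14 genes on more than 1 row were left out), its list of stable nucleosomes (1995 genes) and its TATA-like list were used in part, so no overlap test was run. RefSeq (R64) gave symbols for 397 of the 398 genes, and none of its coordinates were used. Promoter sequences were not used here. With 1 naked DNA library and 2 *dst1∆* replicates no p-value was computed, and values are given as mean ± SD of the 2 replicates; nothing in the labels says that these are separate cultures.

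The promoters, gene lists and tests were chosen with earlier results of these data known. Named genes are the 5 highest and 5 lowest in naked DNA 250 to 50 bp upstream, the 5 with the highest corrected −1 peak in the lower replicate, the 5 with the lowest uncorrected signal 300 to 130 bp upstream in the higher replicate, the 3 widest and 3 narrowest distances among promoters whose peaks differ by at most 20 bp, and the 3 that differ most between replicates in each direction; other genes named were chosen after their values were seen. Among the 5 with the highest corrected −1 peak, 1 is not reported here. Function lists were picked by role from the names. Alternatives were the cap, the fragment length, the width counted, the scaling, the depth, promoters with no site near or no shared window, the correction, the peak height and distance, another −1 window, and each replicate left out. Scripts ran in Python 3.11.15 with pandas 2.3.3, scipy 1.17.1 and numpy 2.4.6, and figures were drawn with matplotlib 3.10.9.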

Additional observations from a re-analysis of the deposited data

Results flagged for a closer look

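With libraries scaled to their genome mean, the ratio of chromatin to naked DNA between 250 and 50 bp upstream had opposite signs in the 2 groups of promoters. On the log2 scale, with 10 added to each mean, it was 0.02 in *dst1∆* replicate 1 and 0.27 in replicate 2 at the 398 stable −1 promoters, and −0.78 and −0.59 at the 166 fragile ones, so that the mean difference was 0.84. Both replicates were above 0 in one group and below 0 in the other, but the stable value (0.15 ± 0.18, SD, n = 2) did not exceed its replicate spread. Its sign may change with the scaling, since the ratio of the stable promoters over the −1 window turned from 0.14 to −0.67 when libraries were scaled to the genome median, and this window was not computed under that scaling. The difference was not tested, since there is only 1 naked DNA library.

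Reads on mitochondrial DNA were outside every comparison. There were 1285 of them in *dst1∆* replicate 2, 0.0142% of its reads, and 0 in *dst1∆* replicate 1 and in naked DNA.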

How the results depend on the processing

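A −1 nucleosome was called in both replicates at 361 of 398 promoters (90.7%), and under the alternatives that kept all 398 and both replicates at 288 (peak height of 50) to 393 (no correction). It was called at 71 of 82 promoters with no site within 500 bp and at 230 of 253 with an unshared window. Leaving out 1 *dst1∆* replicate leaves the value of the other, as given in the report, and turned no direction. No paired analysis was possible because naked DNA and *dst1∆* share fewer than 2 replicate numbers. Causes of the shifts below were not tested.

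The ratio of chromatin to naked DNA at −1 (0.14) changed sign when libraries were scaled to the genome median (−0.67) and at promoters with no listed site within 500 bp upstream (−0.10). The difference in fuzziness (0.46) changed sign with the full nucleosomal width around each centre (−1.13), and was 0.95 with 1 read per strand position, 0.89 with median scaling, 0.88 at promoters with no site within 500 bp, 0.88 at those with an unshared window and 1.21 without correction.

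The naked DNA signal (68.4) was 69.1 without a cap, 74.7 with 1 read per position, 69.1 with the full width, 208 with median scaling, 83.5 with no site within 500 bp and 60.2 with an unshared window. Its log2 ratio to fragile promoters (−0.32) was −0.10, −0.20 and −0.30 under the first 3 of these, and −0.19 and −0.51 under the last 2. The corrected height (95.1) was 139 without a cap, 57.5 with the full width and 171 without correction, where the highest point is at −2. The NDR depth (−2.98) was −3.29 without a cap, −2.26 with 1 read per position, −1.91 with the full width and −2.17 with no site within 500 bp. The distance (255.5 bp) was 250.5 bp with 1 read per position, 248.5 bp with the full width, 251.5 bp with median scaling, 259 bp with an unshared window, 260.5 bp without correction and 259.5 bp with a peak height of 50. The corrected log2 ratio to fragile promoters (0.33) was 0.41 with median scaling, 0.45 with no site within 500 bp, 0.23 with an unshared window and 0.23 without correction.

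With 1 naked DNA library and 2 replicates that differ in run and read length, levels of single promoters are limited more by the replicates than by counting error.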
